A study of Picea abies with 48 samples.

Results

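This comparison set the scion of micrografted Norway spruce (Picea abies) at 3 days after grafting (DAG) against uncut hypocotyl of the same day. It used 6 of the 48 libraries of the series, the 3 labelled as scion and the 3 labelled as intact on day 3. Seedlings were of the seed source FP-96 Skogsgård with genotype WT, and carried no transgene and received no hormone. A graft was made by cutting young seedlings through the hypocotyl, the stem below the needles, and holding the upper piece (scion) on the lower piece (rootstock) of another seedling inside a silicon collar. Scion libraries held about 1 mm of hypocotyl next to the junction and intact libraries about 2 mm of hypocotyl from plants that were never cut, with 5 plants pooled per library. Effects of the cut, of the collar and of contact with the rootstock cannot be told apart in this comparison. Position along the hypocotyl is not separated from them, since intact pieces were not divided into an upper and a lower part. The tissue was taken whole, so fewer cells of a type and less RNA per cell cannot be told apart either.

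A graft heals in steps that are best known from Arabidopsis. Cells at the cut surface first respond to wounding, then stick together through changes in pectin and other wall polymers, divide to form callus, and finally differentiate phloem and xylem that rejoin the vessels of both pieces. Auxin moving down from the shoot is stopped at the cut, so the tissue just above it and the tissue just below it can differ in hormone supply. In conifers, wounding is also known to switch on phenolic and terpenoid defences. Genes are given by their identifiers in the Picea abies genome release used by the authors, and a name ending in "-like" follows the name the study gave to the spruce gene after its Arabidopsis relative.

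Library totals were 17813150, 11511598 and 19047057 counted reads in intact plants and 16874048, 16881493 and 19805397 in the scion, in the order of replicates 1, 2 and 3, which is the order of all values below. Of 70736 genes in the table, 38436 had enough reads to be tested. Expression profiles of replicates correlated at 0.974 to 0.978 in intact plants and at 0.983 to 0.985 in the scion across genes, and at 0.905 to 0.921 between the groups. Replicates varied more than counting error, by a factor of 3.02 to 7.41 in variance. The 10 most abundant genes took 8.60% to 9.06% of an intact library and 4.66% to 5.37% of a scion library. Values are normalized reads, meaning counts divided by a size factor per library, and levels are not compared between genes because gene lengths were not used. Markers of vascular tissue had reads: in intact plants the phloem gene PaAPL-like had 58.2, 72 and 46.4 normalized reads and the xylem gene PaVND4-like had 184, 203 and 166. Of 72 laccases, 1 had no read in any of the 6 libraries, scion included. These reads are no test of the tissue label, since no tissue without such markers was measured.

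At 3 DAG, 3773 genes were called higher in the scion than in intact plants (9.82% of the genes tested) and 2906 were called lower (7.56%). A gene was called where its Benjamini–Hochberg adjusted p from edgeR lay under 0.05 and its log2 fold change was above 1 or below -1. Among called genes, rises were larger than falls: the median absolute log2 fold change was 1.82 among genes called higher and 1.57 among genes called lower, and 368 genes rose by more than 5 on the log2 scale against 110 that fell by as much. No read was counted in any intact library for 237 of the genes called higher, and none in any scion library for 78 of those called lower. The 3 scion and 3 intact values did not overlap for 20277 genes (52.8% of those tested), among them 6396 of the called genes. Scaling mattered for the balance of the calls. Under TMM scaling, which assumes that most genes do not change, 56.5% of called genes were higher, whereas with library size alone 68% were (4749 higher, 2232 lower), and the median log2 fold change of all genes moved up by 0.16.

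**Figure D1:**
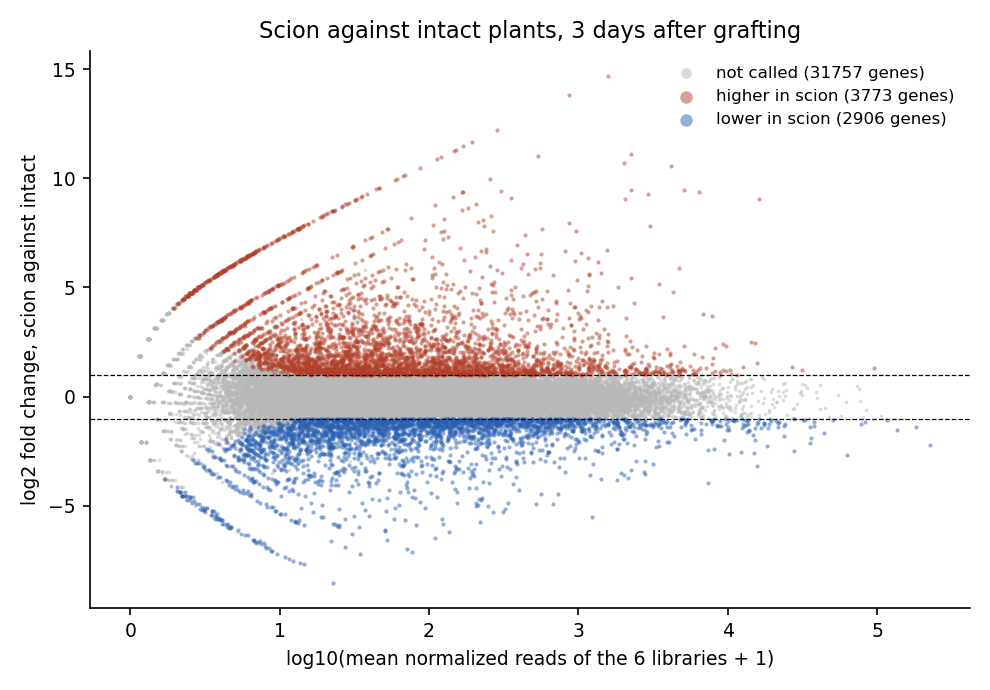
Each point is 1 of the 38436 genes tested, with the log10 of its mean normalized reads over the 6 day 3 libraries plus 1 on the x axis and its log2 fold change of scion over intact on the y axis, and dashed lines at 1 and -1. Coloured points are the 3773 genes called higher and the 2906 called lower, and rises reach further from 0 than falls.

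Regulators that other plants use in wounding and regeneration were among the 16 spruce genes that the study named. The study picked many of the 16, with PaWOX13-like and PaWIND1-like among them, from genes that had changed after grafting in this series. Their direction is therefore no independent evidence. PaWOX13-like (MA_116716g0010), a relative of the WOX13 homeobox gene that promotes callus formation and organ reconnection in Arabidopsis, had 104, 162 and 136 normalized reads in the scion and 13.8, 9.81 and 12.4 in intact plants. PaWOX13-like rose by 3.47 on the log2 scale (SE 0.26, edgeR adjusted p = 2.5e-14), and every scion library lay above every intact library. PaWIND1-like (MA_98464g0010), named after an AP2/ERF factor that drives wound-induced dedifferentiation, had 355, 437 and 324 normalized reads in the scion and 21.2, 14.7 and 6.19 in intact plants. PaWIND1-like rose by 4.77 (SE 0.60, edgeR adjusted p = 5.24e-08), again with no overlap between the groups. PaERF115-like (MA_10274g0010) is related to the Arabidopsis ERF115 that replaces dead stem cells through division. PaERF115-like had 324, 368 and 386 normalized reads in the scion and 1.06, 0 and 1.03 in intact plants, which is 1153 against 2 counted reads and a ratio of 455 (exact binomial 95% interval 126 to 3763). That interval covers counting error only.

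PaPAT1-like (MA_10426489g0020) belongs to the GRAS family and is related to the partner of ERF115 in Arabidopsis regeneration. PaPAT1-like had 141, 113 and 106 normalized reads in the scion and 58.2, 75.2 and 54.7 in intact plants, so the groups did not overlap, and its log2 fold change of 0.99 (SE 0.18, edgeR adjusted p = 1.62e-05) stayed just under the fold threshold. It passed that threshold with library size alone, without a filter on low counts, and without scion replicate 2 or 3 or intact replicate 2. PaLRP1-like (MA_2299g0010), related to a gene of the lateral root primordium, had 42.7, 55.5 and 52.6 normalized reads in the scion and 1.06, 3.27 and 1.03 in intact plants, and rose by 4.92 (SE 0.52, edgeR adjusted p = 2.39e-10). PaWIP4-like (MA_29238g0010), a zinc finger gene, had 235, 277 and 222 normalized reads in the scion and 76.2, 81.8 and 75.3 in intact plants. PaWIP4-like rose by 1.69 (SE 0.16, edgeR adjusted p = 8.48e-12), a smaller rise in a gene that intact plants also expressed. PaMYB4-like (MA_316475g0010) had 57.2, 50.6 and 33.6 normalized reads in the scion and 3.18, 1.64 and 20.6 in intact plants, with intact replicate 3 well above the other intact libraries, and rose by 2.34 (SE 0.49, edgeR adjusted p = 0.000163), or by 4.16 without that library. PaMYB123-like (MA_10048467g0010) had few reads throughout, with 12.6, 6.94 and 18.1 normalized reads in the scion and 0, 6.54 and 0 in intact plants. It rose by 2.93 (SE 0.71, edgeR adjusted p = 0.000745). Intact replicate 2 was the single intact library with a read. Without it the fitted rise of 6.76 is no measure of size, since no intact read remains.

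The last 5 of these genes belong to a module of 64 transcription factor genes that the study chose from these same libraries for rising after grafting, so its direction is no independent evidence. Of its 60 genes tested, 41 were called higher and none lower, with a median log2 fold change of 1.57 against 0.04 over all genes. The module holds many LOB domain, MYB, dof and homeobox-leucine zipper factors. Among members with a mean of at least 20 normalized reads, the largest rise was in MA_84935g0010, a Myb family gene, with 65, 41.7 and 43.1 normalized reads in the scion and no read in intact plants, at least 41.8-fold higher when intact plants are set to a floor of 3 reads over the group. The same floor is used for all such bounds below.

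**Figure D2:**
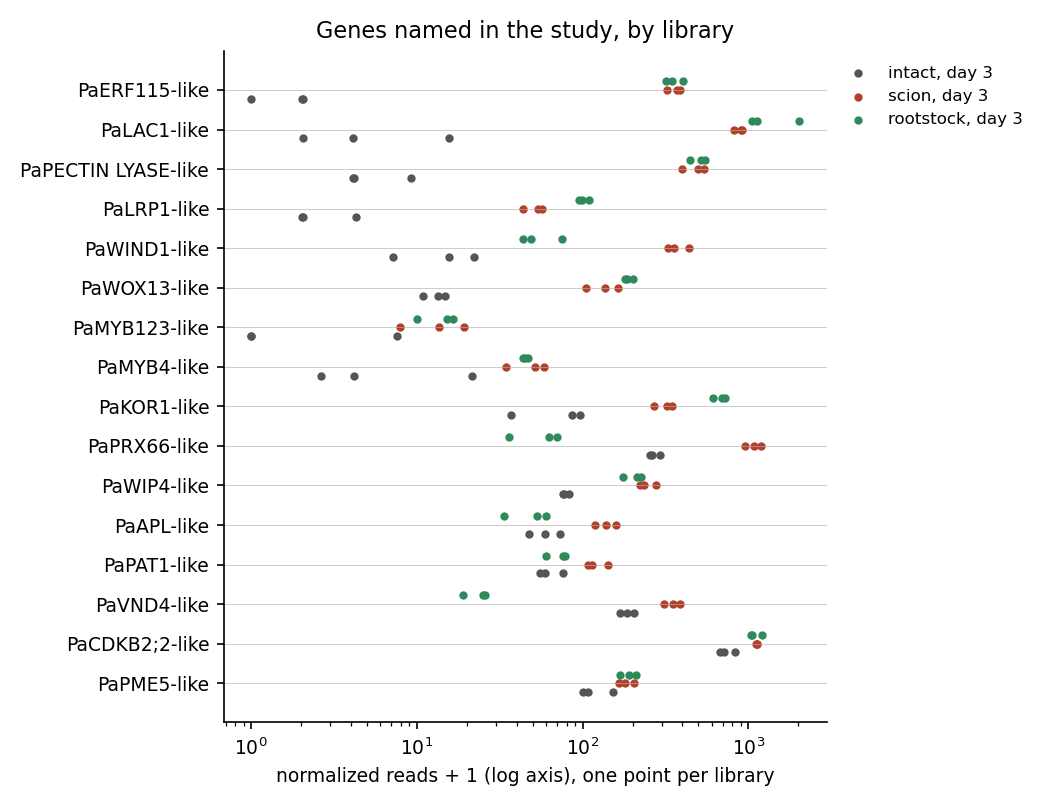
Normalized reads plus 1 (log axis) of the 16 genes named by the study in each library of intact, scion and rootstock tissue at 3 DAG, 1 point per library. PaERF115-like, PaLAC1-like and PaPECTIN LYASE-like have scion points far above their intact points, while PaPRX66-like and PaVND4-like have rootstock points below both.

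Genes of dividing cells were called in part. PaCDKB2;2-like (MA_920994g0010), a relative of the plant kinases that act at mitosis, had 1125, 1129.8 and 1118 normalized reads in the scion and 826, 716 and 669 in intact plants. Its groups did not overlap, and its log2 fold change was 0.64 (SE 0.11, edgeR adjusted p = 1.01e-05), under the fold threshold. Of 25 genes of mitosis and DNA replication, 9 were called higher and none lower, with a median of 0.85. That share lies near the 32.7% called higher among all annotated genes, which is described below with the lists made from annotation words. Their summed level was 2448 to 2799 normalized reads in intact libraries and 4600.0 to 4780.2 in scion libraries. The members called higher included mitotic cyclins, cyclins of the D type and the spindle checkpoint gene MAD2, named here after their values were seen. MA_10429863g0010, annotated as cell division control 2 homolog C, had 28.1, 40.7 and 34.5 normalized reads in the scion and 9.53, 16.4 and 11.3 in intact plants, and rose by 1.54 (SE 0.33, edgeR adjusted p = 0.000182). Of 17 core histones, which package newly made DNA, 4 were called higher and none lower, a smaller share than among annotated genes. Their median log2 fold change was 0.67, under the fold threshold. At an unadjusted edgeR p under 0.05, 14 histones were higher and 0 lower, and 19 mitosis genes were higher and 1 lower. Histone sums were 2427 to 2818 in intact plants and 4185 to 4822 in the scion, and the histone H2B-like MA_111473g0010 had 28.1, 37.7 and 37.1 normalized reads in the scion and 13.8, 16.4 and 16.5 in intact plants. Without intact replicate 3, 5 mitosis genes were called higher, and scaling by library size alone gave 15.

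Genes for the proteins of the cytosolic ribosome rose together. Of 74 tested, 59 were called higher and none lower. Log2 fold changes of all 74 lay between 0.55 and 1.98 with a median of 1.14, so the members not called were also positive but under the fold threshold or the test. Summed over the list, intact libraries had 130566 to 136424 normalized reads and scion libraries 287872 to 294232. The largest rise was in MA_10436379g0020, annotated as 40S ribosomal S29, with 39.8, 55.5 and 49.1 normalized reads in the scion and 9.53, 18 and 11.3 in intact plants. It rose by 1.98 (SE 0.51, edgeR adjusted p = 0.00156).

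Of the enzymes that open pectin, more rose than fell. Of 37 pectate and pectin lyases, which cut the pectin that glues walls together, 18 were called higher and 3 lower, while 16 were not called, with a median log2 fold change of 1.51. With the 3 members that lack reads in a group set to their bounds, this median was 1.40. Probable pectate lyase 18 (MA_97947g0010) had 3207, 4503 and 4412 normalized reads in the scion and 3.18, 0 and 3.09 in intact plants. It rose by 10.70 (SE 0.42, edgeR adjusted p = 4.32e-20), among the largest rises of any annotated gene. PaPECTIN LYASE-like (MA_6752784g0010) had 397, 499 and 535 normalized reads in the scion and 3.18, 8.18 and 3.09 in intact plants, with no overlap, and rose by 6.77 (SE 0.44, edgeR adjusted p = 7.62e-15). Both carry the same annotation, and reads of near-identical copies can be split between them, so the share of each is uncertain. In the other direction, probable pectate lyase 8 (MA_10428603g0010) had 4.85, 4.96 and 10.3 normalized reads in the scion and 20.1, 78.5 and 48.5 in intact plants, and fell by 2.69 (SE 0.55, edgeR adjusted p = 0.000137).

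Beta-1,4-glucanases, which act on cellulose and related glucans, had 10 of 22 called higher, 1 lower and 11 not called (median 1.26). PaKOR1-like (MA_69345g0010), related to a membrane-bound glucanase of cellulose synthesis, had 269.6, 343 and 322 normalized reads in the scion and 85.8, 36 and 94.9 in intact plants. PaKOR1-like rose by 2.09 (SE 0.25, edgeR adjusted p = 1.01e-08). Endoglucanase 3 (MA_697188g0010) had 501, 522 and 486 normalized reads in the scion and 6.35, 11.4 and 7.22 in intact plants, a rise of 6.0 (SE 0.50, edgeR adjusted p = 7.49e-12). The member called lower, a glycoside hydrolase (MA_54112g0010), had 63, 75.4 and 43.1 normalized reads in the scion and 350.5, 303 and 521 in intact plants, and fell by 2.67 (SE 0.32, edgeR adjusted p = 1.45e-08).

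Pectin methylesterases, which remove methyl groups from pectin and so change its stiffness and its access to lyases, split both ways. Of 54 tested, 16 were called higher and 12 lower (median 0.32). PaPME5-like (MA_10267810g0010) had 180.3, 203 and 164 normalized reads in the scion and 152, 106 and 99 in intact plants, and its log2 fold change of 0.64 (SE 0.18, edgeR adjusted p = 0.00342) was under the fold threshold. Probable pectinesterase 53 (MA_10428610g0010) had 277, 348 and 341 normalized reads in the scion and 44.5, 42.5 and 53.6 in intact plants, and rose by 2.80 (SE 0.23, edgeR adjusted p = 3.1e-13). A pectinesterase-like gene (MA_158002g0020) showed the reverse order, with 3.88, 4.96 and 0.86 normalized reads in the scion and 67.8, 39.2 and 60.9 in intact plants, and fell by 4.08 (SE 0.47, edgeR adjusted p = 2.21e-09). MA_648837g0010 had 8.73, 7.94 and 11.2 normalized reads in the scion and 115, 157 and 61.9 in intact plants. Pectinesterase 2 (MA_4239259g0010) had 18.4, 11.9 and 9.48 normalized reads in the scion and 104, 70.3 and 180.5 in intact plants. Probable pectinesterase/pectinesterase inhibitor MA_679495g0010 had 35.9, 40.7 and 14.7 normalized reads in the scion and 202, 144 and 384 in intact plants. These 3 genes fell by 3.49, 3.14 and 3.00, and were named by a rule that required groups without overlap.

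Expansins and xyloglucan endotransglucosylases, which loosen and rejoin the wall during growth, were divided almost evenly. Of 31 tested, 13 were called higher and 11 lower (median 0.54). Expansin-B3-like (MA_166764g0010) had 211, 364 and 280.2 normalized reads in the scion and 0, 0 and 1.03 in intact plants, or 910 against 1 counted read, a ratio of 718 (exact binomial 95% interval 129 to 28407). The 3 xyloglucan enzymes among the largest falls moved the other way. MA_10433908g0010 had 75.6, 71.4 and 90.5 normalized reads in the scion and 684, 631 and 779 in intact plants and fell by 3.10 (SE 0.37, edgeR adjusted p = 2.2e-08). MA_10389761g0010 had 9.7, 10.9 and 17.2 normalized reads in the scion and 110.1, 113 and 108 in intact plants and fell by 3.06 (SE 0.39, edgeR adjusted p = 3.65e-08). MA_10434153g0020 had 252, 362 and 272 normalized reads in the scion and 1629.6, 878 and 9445 in intact plants, so its intact level rested largely on replicate 3. It fell by 3.72 (SE 0.53, edgeR adjusted p = 5.68e-07), and was not called when only the 6 libraries were fitted (adjusted p = 0.0609), while without intact replicate 3 its log2 fold change was -2.06. That fit of 6 libraries called 7 genes of this list lower.

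Laccases polymerize monolignols into lignin, chiefly in xylem. More of them fell than rose: of 61 tested, 12 were called higher and 23 lower, with a median log2 fold change of -0.60. Their summed reads nevertheless overlapped, at 13240.0 to 17704 in intact plants and 14552 to 14894 in the scion. PaLAC1-like (MA_75861g0010) had 815, 896 and 915 normalized reads in the scion and 1.06, 14.7 and 3.09 in intact plants. PaLAC1-like rose by 7.40 (SE 0.72, edgeR adjusted p = 2.48e-10). A further laccase-1 (MA_10433581g0010) had 68.8, 71.4 and 45.7 normalized reads in the scion and none in intact plants, at least 51.6-fold higher. Laccase-17 (MA_122769g0010), named after a laccase of stem lignification in Arabidopsis, had 9.7, 1.98 and 2.59 normalized reads in the scion and 66.7, 126 and 522 in intact plants. It fell by 5.62 (SE 0.79, edgeR adjusted p = 1.32e-06). Another laccase (MA_63042g0010) had 5.82, 0.99 and 0 normalized reads in the scion and 54, 58.9 and 225 in intact plants, and fell by 5.61 (SE 0.71, edgeR adjusted p = 6.13e-08). Both genes also fell with time in intact plants, as given below with the intact controls. In both genes intact replicate 3 was the highest library. That library was the highest of the intact ones for 48 of the 72 list members called lower and for 1319 of all 2906 genes called lower, and without it 17 laccases were called lower.

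Vascular genes were expressed in both groups, with log2 fold changes from 0.96 to 2.04 among those that the study named. PaAPL-like (MA_201937g0010), related to the Arabidopsis factor that specifies phloem, had 117, 137 and 157 normalized reads in the scion, above the intact values given earlier, and rose by 1.28 (SE 0.18, edgeR adjusted p = 2.14e-07). PaVND4-like (MA_6777g0010), of the NAC family that switches on vessel formation, had 309, 386 and 348, likewise above the intact libraries, with a log2 fold change of 0.96 (SE 0.15, edgeR adjusted p = 8.58e-07) that just missed the fold threshold. It passed that threshold with library size alone and without scion replicate 1 or intact replicate 2. PaPRX66-like (MA_10431507g0020), a class III peroxidase whose Arabidopsis relative marks lignifying vessels, had 956, 1193 and 1087 normalized reads in the scion and 253, 260.1 and 291 in intact plants. PaPRX66-like rose by 2.04 (SE 0.28, edgeR adjusted p = 3.26e-07). The table holds 5 genes annotated as peroxidase 66, and all 5 were called higher. MA_117730g0010 had 68.8, 155 and 174 normalized reads in the scion and 8.47, 3.27 and 20.6 in intact plants, and MA_100063g0010 had 241, 306 and 291 normalized reads in the scion and 40.2, 45.8 and 66 in intact plants. Where these genes are near-identical copies, their reads may be missing or split among them.

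Over all 40 class III peroxidases tested, 18 were called higher and 6 lower (median 1.55). Cationic peroxidase 1-like (MA_186345g0010) had 83.4, 113 and 99.2 normalized reads in the scion and 1.06, 1.64 and 0 in intact plants, with 315 against 2 counted reads and a ratio of 124 (exact binomial 95% interval 34.1 to 1031). Peroxidase 72-like (MA_179122g0010) had 43.6, 27.8 and 34.5 normalized reads in the scion and 97.4, 54 and 255 in intact plants, a fall of 1.95 (SE 0.36, edgeR adjusted p = 2.47e-05) that was not called when only the 6 libraries were fitted (adjusted p = 0.0652), while without intact replicate 3 its log2 fold change was -1.11. That fit called 2 peroxidases lower.

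**Figure D3:**
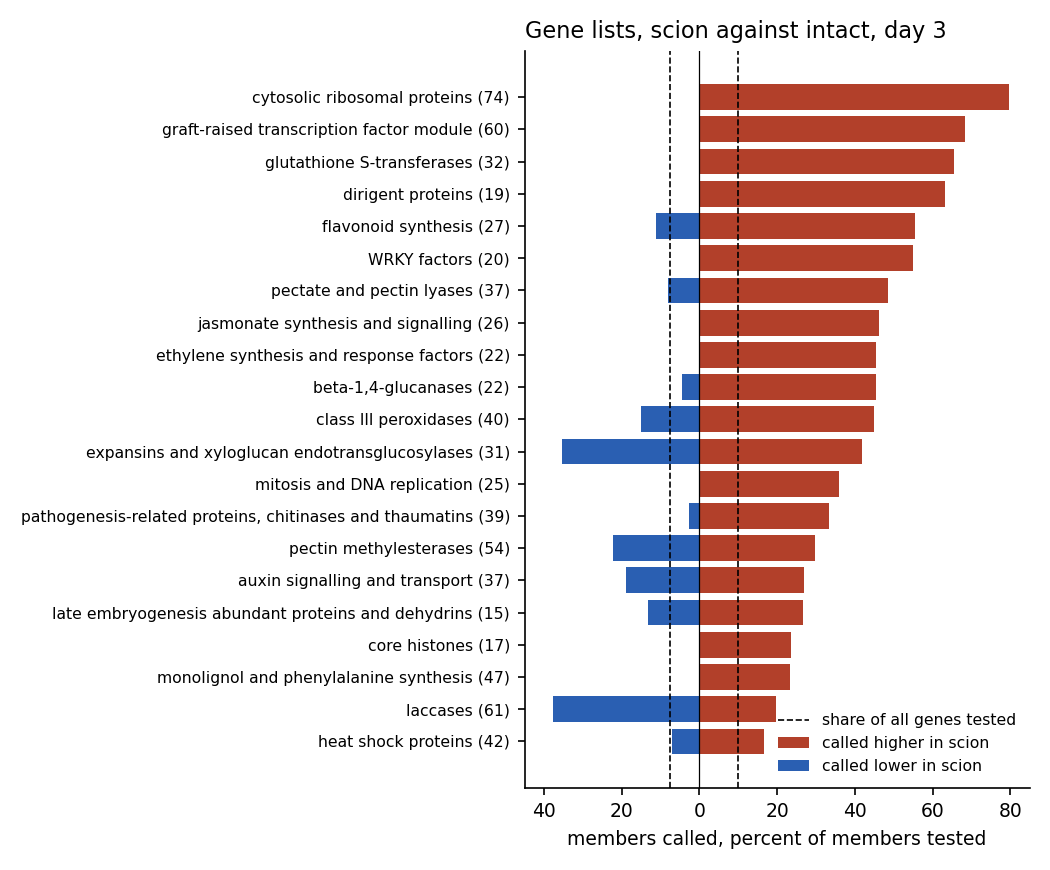
Percentage of the tested members of each of 21 gene lists called higher (right) or lower (left) in the scion than in intact plants at 3 DAG, with the number tested in brackets and dashed lines at the shares of all genes tested. Cytosolic ribosomal proteins and the transcription factor module lie furthest to the right, and laccases furthest to the left, with 23 of 61 called lower.

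The lists other than the module and the cell wall families were made from annotation words, in tables whose genes had changed after grafting or after auxin treatment. Among all 4310 tested genes with an entry in those tables or in the study's own lists, 32.7% were called higher and 5.64% lower, against 6.93% and 7.80% among the 34126 genes outside them. A list's count is therefore best read beside both shares. Over all 21 lists, 746 different genes were tested, of which 325 were called higher, 72 lower and 349 not called. In the 10 lists with no member called lower by edgeR, 0 to 4 members were lower at an unadjusted p under 0.05, and DESeq2 called none lower.

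Auxin genes moved in both directions. Of 37 genes of auxin signalling and transport, 10 were called higher and 7 lower (median 0.31). Indole-3-acetate O-methyltransferase 1 (MA_13253g0010), which methylates auxin into an inactive ester, had 326, 345 and 336 normalized reads in the scion and none in intact plants, at least 283-fold higher. Looking at the annotations of the called members after their values were seen, 3 auxin methyltransferases and 3 indole-3-acetic acid-amido synthetases, both of which inactivate auxin, were among the 10 higher genes. The 7 lower genes included 6 annotated as auxin-induced 15A-like, 6B-like or SAUR71-like, small proteins of auxin-driven growth. One of these, MA_10428249g0010, had 2.91, 13.9 and 14.7 normalized reads in the scion and 51.9, 83.4 and 96.9 in intact plants, and fell by 2.81 (SE 0.44, edgeR adjusted p = 1.35e-06). A gene of the same annotation, MA_170671g0030, was counted at 291 reads in the scion and 0 in intact plants, so this annotation was not uniform in direction. Fitted alone, the 6 libraries gave 4 lower calls among auxin genes.

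Ethylene genes were higher where they changed, with 10 of 22 called higher and none lower (median 1.75). Besides PaERF115-like these were other response factors and the synthase and oxidase that make ethylene from its precursor. Among 26 jasmonate genes, 12 were called higher and none lower (median 1.01), mainly 12-oxophytodienoate reductases, which act in jasmonate synthesis, and TIFY 10 genes, whose products repress the jasmonate response. TIFY 10a (MA_10229741g0010) had 37.8, 36.7 and 69.8 normalized reads in the scion and 3.18, 0 and 1.03 in intact plants, and rose by 4.87 (SE 1.35, edgeR adjusted p = 0.00345). A cytochrome P450 (MA_15954g0010), annotated after an enzyme that inactivates brassinosteroids in Arabidopsis, went down, with 0.97, 4.96 and 1.72 normalized reads in the scion and 81.5, 57.2 and 157 in intact plants. It fell by 5.22 (SE 0.52, edgeR adjusted p = 5.56e-11). GAST1-like (MA_24001g0010), of a family first described as gibberellin-responsive in tomato, had 13.6, 19.8 and 28.4 normalized reads in the scion and 157, 144 and 381 in intact plants, and fell by 3.42 (SE 0.47, edgeR adjusted p = 3.08e-07).

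Of 47 genes that make phenylalanine and monolignols, 11 were called higher and none lower, with a median of 0.31, and 36 were not called, so that fewer were called higher than among annotated genes at large. A caffeic acid O-methyltransferase (MA_10426580g0010) had 342, 331 and 325 normalized reads in the scion and 0, 0 and 1.03 in intact plants, or 1064 against 1 counted read, a ratio of 840.0 (exact binomial 95% interval 150.4 to 33209). Dirigent proteins, which steer the coupling of monolignols into lignans, were higher in 12 of 19 and lower in none. Their median was 4.10, or 3.16 with 2 members lacking intact reads set to their bounds. Dirigent pDIR13 (MA_10435797g0010) had 6537, 5586 and 6024 normalized reads in the scion and 56.1, 6.54 and 13.4 in intact plants. It rose by 7.82 (SE 0.68, edgeR adjusted p = 2.37e-11).

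Flavonoid synthesis had 15 of 27 genes called higher and 3 lower (median 1.96), the higher ones including chalcone synthases, the first enzymes of the pathway. A dihydroflavonol 4-reductase (MA_10435833g0010), a later step towards anthocyanins and proanthocyanidins, had 48.5, 81.3 and 48.3 normalized reads in the scion and 0, 0 and 1.03 in intact plants, or 188 against 1 counted read, a ratio of 148 (exact binomial 95% interval 26.3 to 5893). A leucoanthocyanidin dioxygenase-like gene (MA_10430508g0010) ran the other way, with 109.6, 135 and 122 normalized reads in the scion and 245, 459.6 and 518 in intact plants, and fell by 1.70 (SE 0.21, edgeR adjusted p = 3.35e-08). Without intact replicate 3, 5 flavonoid genes were called lower. Glutathione S-transferases, which attach glutathione to reactive compounds, had 21 of 32 called higher and none lower, with a median of 2.36. Among those with a mean of at least 20 normalized reads, the largest rise was in MA_14925g0010, with 2601, 2195 and 1975 normalized reads in the scion and 106, 42.5 and 51.6 in intact plants, which rose by 5.07 (SE 0.36, edgeR adjusted p = 1.77e-13).

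Several of the largest rises of annotated genes were in genes of defence and specialized metabolism. A probable 2-oxoglutarate-dependent dioxygenase (MA_10431230g0020) had 2979.7, 3111 and 3321 normalized reads in the scion and none in intact plants, at least 2648-fold higher and the largest fitted rise of any gene with a mean of 50 normalized reads or more. A PR-1-like gene (MA_102795g0010), of the pathogenesis-related proteins secreted after infection, had 424, 678 and 602 and none, at least 478-fold higher. Probable WRKY transcription factor 31 (MA_175750g0010) had 303, 318 and 250.0 and none, at least 243-fold higher. Longifolene synthase (MA_10426551g0010), which makes a sesquiterpene of conifer resin, had 361, 241 and 119 and none, at least 198-fold higher, with replicate 1 the highest of the scion libraries.

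Among genes annotated as PR10, small intracellular proteins of the defence response, 3 were in this leading group. MA_10265000g0010 had 13348, 13178 and 11955 normalized reads in the scion and 24.4, 1.64 and 26.8 in intact plants, and rose by 9.39 (SE 0.62, edgeR adjusted p = 4.02e-14). MA_158635g0010 had 7501, 8757 and 8914 normalized reads in the scion and 10.6, 1.64 and 3.09 in intact plants, and rose by 10.57 (SE 1.03, edgeR adjusted p = 2.77e-10). MA_135328g0010 had 715, 1243 and 1236 normalized reads in the scion and 0, 0 and 1.03 in intact plants, with 3424 against 1 counted read and a ratio of 2703 (exact binomial 95% interval 485 to 106799). These sequences may be close copies, so the split of reads among them is uncertain. The wider list of pathogenesis-related proteins, chitinases and thaumatins was less uniform, with 13 of 39 called higher, 1 lower and 25 not called (median 1.69). Its share called higher lies near the 32.7% among all annotated genes. The member called lower, basic endochitinase MA_10313114g0010, had 40.7, 93.2 and 119.8 normalized reads in the scion and 524, 108 and 273 in intact plants, so its groups overlapped. Its log2 fold change of -1.82 (SE 0.75, edgeR adjusted p = 0.0458) lost its call under 11 alternatives, with adjusted p from 0.0548 to 0.278, and was -1.17 without intact replicate 1. Each of the libraries other than intact replicate 2 ended this call when left out. WRKY factors, regulators of defence, had 11 of 20 called higher and none lower (median 1.39).

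Stress proteins moved in both directions. Of 42 heat shock proteins, 7 were called higher and 3 lower, and their median of -0.003 became 0.16 when libraries were scaled by size alone, so its sign depends on the scaling. Without scion replicate 2, 5 were called lower. A small heat shock gene (MA_10427493g0030) had 93.1, 122 and 122 normalized reads in the scion and 12.7, 6.54 and 13.4 in intact plants, and rose by 3.33 (SE 0.32, edgeR adjusted p = 2.55e-11). A class I heat shock gene (MA_106915g0010) had 226, 203 and 231 normalized reads in the scion and 41.3, 42.5 and 27.8 in intact plants, and rose by 2.62 (SE 0.23, edgeR adjusted p = 2.12e-12). HSP26 (MA_10436974g0020) had 43.6, 27.8 and 34.5 normalized reads in the scion and 139, 168 and 114 in intact plants, and fell by 1.94 (SE 0.36, edgeR adjusted p = 3.62e-05). Of 15 late embryogenesis abundant proteins and dehydrins, which protect cells during drying, 4 were called higher and 2 lower (median 0.75). A dehydrin (MA_187114g0010) had 70.8, 83.3 and 62.9 normalized reads in the scion and 16.9, 16.4 and 16.5 in intact plants, and rose by 2.15 (SE 0.64, edgeR adjusted p = 0.00639). A root cap late embryogenesis gene (MA_10430750g0010) had 247, 208 and 238 normalized reads in the scion and 673, 836 and 825 in intact plants, and fell by 1.71 (SE 0.17, edgeR adjusted p = 2.3e-10). The largest fall of any gene with a mean of 50 normalized reads or more was in MA_9514811g0010, which has no annotation here, with 0, 0.99 and 1.72 normalized reads in the scion and 152, 182 and 119 in intact plants, or 370 against 3 counted reads and a ratio of 156 (exact binomial 95% interval 53 to 761).

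The intact controls, sampled at day 0 as well, also changed with time, with 1.38% of all genes called higher and 2.21% lower at day 3 than at day 0, and 2.44% and 4.2% of annotated genes. Between these days, intact plants had 12 of 42 heat shock proteins called higher and 1 lower, 11 of 31 expansins and xyloglucan enzymes called lower and 1 higher, 10 of 40 class III peroxidases called lower and none higher, and 9 of 37 auxin genes called lower and 2 higher. Ribosomal proteins had 1 of 74 called higher and none lower, laccases 2 higher and 3 lower of 61, and the transcription factor module 1 higher and 3 lower of 60. Several of the 10 largest annotated falls in the scion were in genes that also fell in intact plants between these days. Laccase-17 (MA_122769g0010) was called lower at day 3 than at day 0 (log2 fold change -2.40), as were MA_63042g0010 (-2.61), MA_10434153g0020 (-2.42) and GAST1-like (-2.59). The other genes of the 10 were not called. The part of these changes with time in the comparison with the scion was not tested.

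The scion was also compared directly with the rootstock of the same day, to see where the tissue above the junction differed from that below it. Scion and rootstock pieces also differ in position along the hypocotyl, and the part of position was not tested. Both tissues are measured from the same intact libraries, so no overlap of their changes is given, and the direct test shares the scion libraries with the comparison above and does not use the intact libraries except for the shared spread of the fit. Of 38436 genes, 2740 were called higher in the scion than in the rootstock (7.13%) and 1721 lower (4.48%). Among the annotated genes, 10.1% were called higher and 11.9% lower.

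PaVND4-like had 24, 17.9 and 24.8 normalized reads in the rootstock, and was higher in the scion by 3.95 on the log2 scale (SE 0.19, edgeR adjusted p = 5.81e-19). PaPRX66-like had 61.3, 34.8 and 68.9 in the rootstock, below the intact libraries, and the scion was higher by 4.27 (SE 0.33, edgeR adjusted p = 2.52e-12). All 5 peroxidase 66 genes were called higher in the scion than in the rootstock, MA_117730g0010 by 4.78 and MA_100063g0010 by 4.18. They were 5 of the 6 class III peroxidases called higher, against 19 of the 40 called lower (median -0.99), and were singled out after their values were seen. Of 61 laccases, 27 were called higher in the scion and 9 lower, with a median log2 difference of 1.28. Against intact plants, where 9.56% of all genes were called higher and 10.1% lower in the rootstock, the rootstock had 35 laccases called lower and the scion 23. PaLAC1-like did not follow the list, with 1049, 2031 and 1124 in the rootstock and a log2 difference of -0.66 (SE 0.39, edgeR adjusted p = 0.212). The phloem gene PaAPL-like, at 52.2, 32.5 and 58.9 in the rootstock, was higher in the scion by 1.50 (SE 0.18, edgeR adjusted p = 1.01e-08).

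PaWIND1-like differed most among the wound regulators, with 48, 74.1 and 42.6 normalized reads in the rootstock and a log2 difference of 2.80 (SE 0.48, edgeR adjusted p = 2.17e-05). PaWOX13-like, PaERF115-like and PaPAT1-like were not called. PaWOX13-like had a log2 difference of -0.47 (SE 0.18, edgeR adjusted p = 0.0415) and PaPAT1-like of 0.76 (SE 0.17, edgeR adjusted p = 0.000515), both missing only the fold threshold. PaERF115-like had 0.03 (SE 0.18, edgeR adjusted p = 0.919). PaKOR1-like was lower in the scion, with 614, 690.1 and 720.3 in the rootstock and a log2 difference of -1.10 (SE 0.21, edgeR adjusted p = 7.4e-05), which became -0.997 and lost its call with library size alone. The auxin methyltransferase MA_13253g0010 had 25.7, 21.3 and 13.2 in the rootstock, so the scion was higher by 4.08 (SE 0.39, edgeR adjusted p = 4.26e-09). The transcription factor module had 20 genes called higher in the scion and 2 lower. Outside it, the homeobox-leucine zipper gene MA_12174g0010, annotated as HAT22-like, had 97.9, 161 and 87.9 normalized reads in the scion, 43.4, 37.6 and 71.2 in intact plants and 6.63, 2.24 and 3.87 in the rootstock. It was higher in the scion than in the rootstock by 4.68 (SE 0.38, edgeR adjusted p = 9.63e-13), and its rise of 1.19 over intact plants (SE 0.27, edgeR adjusted p = 0.000372) was 0.88 and not called without scion replicate 2. Polygalacturonase MA_133473g0010, a pectin-cutting enzyme, had 394, 466 and 385 in the scion, 8.47, 11.4 and 19.6 in intact plants and 23.2, 8.98 and 15.5 in the rootstock. Dehydrin MA_104214g0010 had 1919, 1937 and 1605 in the scion and 58, 52.7 and 51.1 in the rootstock, a log2 difference of 5.08, while intact plants ranged widely at 1248, 85 and 319.7. Its call against intact plants was lost without intact replicate 2 (log2 fold change 1.25) or intact replicate 3 (1.44), and with only the 6 libraries fitted (1.70), and its value was 3.14 without intact replicate 1. The class I heat shock gene MA_106915g0010, at 4.97, 10.1 and 10.1 in the rootstock, was higher in the scion by 4.73.

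Defence lists had more members lower than higher in the scion. Of 39 pathogenesis-related proteins, chitinases and thaumatins, 23 were called lower in the scion and 2 higher, with a median log2 difference of -2.21, and 35 of the 39 were called higher in the rootstock than in intact plants. Glutathione S-transferases were lower in 13 of 32 and higher in 1, and WRKY factors lower in 6 of 20 and higher in none. An anti-microbial protein gene (MA_248276g0010) had 416, 268 and 328 normalized reads in the scion, 22.2, 0 and 6.19 in intact plants and 14213, 9562 and 13116 in the rootstock, a log2 difference of -5.18 (SE 0.97, edgeR adjusted p = 8.28e-05). Trypsin inhibitor 3 (MA_14420g0010) had 3.88, 5.95 and 6.04 in the scion and 151, 205 and 222 in the rootstock. A sesquiterpene synthase (MA_10435706g0010) had 116, 196 and 86.2 in the scion and 2746, 7012 and 1567 in the rootstock. Cell wall invertase CWINV1 (MA_111103g0010), which splits sucrose, had 1.94, 5.95 and 3.45 in the scion, 20.1, 27.8 and 62.9 in intact plants and 108, 157 and 117 in the rootstock, so the scion lay below both. None of the 74 ribosomal protein genes was called in either direction between scion and rootstock by edgeR or DESeq2, with 20 higher and 1 lower at an unadjusted p under 0.05. Among WRKY factors no gene was higher at that unadjusted p or by DESeq2. Pectate and pectin lyases had 2 called higher and 1 lower of 37.

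**Figure D4:**
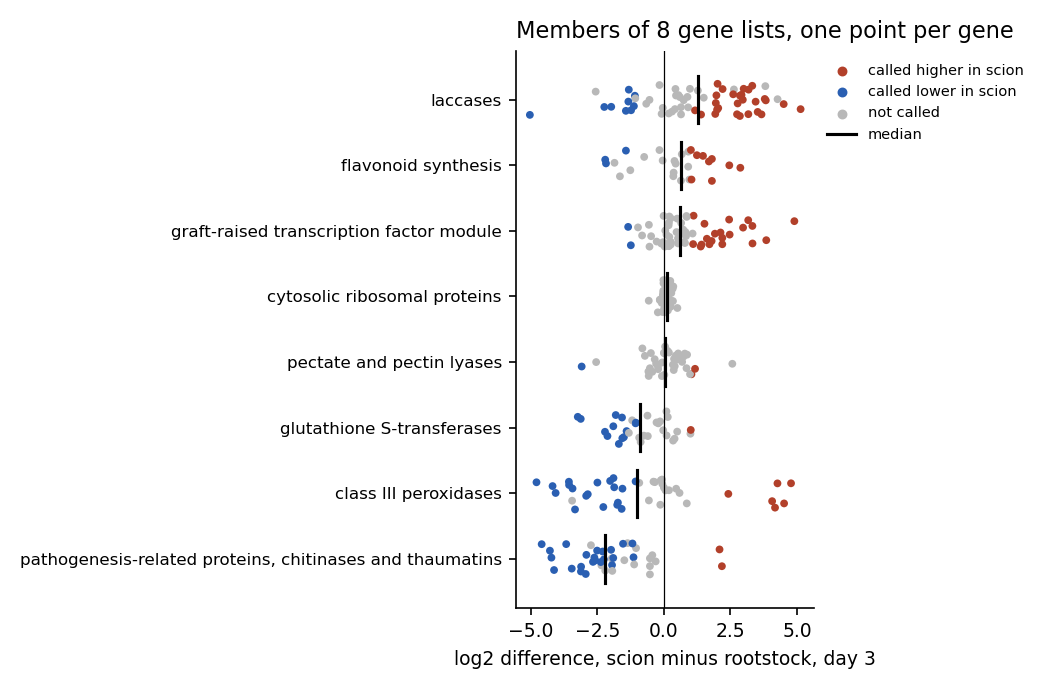
Each point is 1 tested gene of 8 gene lists, placed by its log2 difference of scion minus rootstock at 3 DAG (x axis), red where called higher in the scion, blue where called lower and grey where not called, with a black bar at the list's median. Laccases (median 1.28) lie mostly to the right, pathogenesis-related proteins, chitinases and thaumatins (median -2.21) mostly to the left, and no cytosolic ribosomal protein gene is coloured.

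The response at 3 DAG was then set against that at 1 DAG, when scion and intact plants were sampled in the same way. An interaction term tested whether the difference from intact plants had changed, and no library was shared between the days. The response was called higher at day 3 for 1671 genes (4.35% of those tested) and lower for 892 (2.32%), and among annotated genes for 5.94% and 8.03%. At day 1, 11.4% of all genes were called higher than in intact plants and 11.3% lower, and at day 7 10.8% and 7.23%. Many genes called at day 3 were also called on these days: 2399 of the 3773 higher genes (63.6%) were also higher at day 1, where they made up 54.8% of the calls, and 1909 of the 2906 lower genes (65.7%) were also lower at day 1, where they made up 44%. At day 7 the shared genes were 2249 higher (59.6% of day 3, 54.4% of day 7) and 1475 lower (50.8% and 53.1%). On both other days 1433 of the higher and 980 of the lower genes were called the same way, and 558 and 502 were called the same way on neither.

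Several genes of division had a higher response at day 3 than at day 1. PaCDKB2;2-like at 1 DAG had 324, 355 and 304 normalized reads in the scion and 626, 639 and 555 in intact plants, so it was then below intact plants, and its response was higher at day 3 by 1.55 (SE 0.16, edgeR adjusted p = 3.16e-09). Of 25 mitosis and replication genes, 10 had a higher response at day 3 and none a lower one, and of 17 core histones 6 and none. PaPRX66-like at 1 DAG had 142, 142 and 115 in the scion and 425, 531 and 733 in intact plants, and its response was higher at day 3 by 4.13 (SE 0.41, edgeR adjusted p = 4.48e-09). All 5 peroxidase 66 genes had a higher response at day 3, while over the 40 class III peroxidases 8 were called higher and 6 lower. PaVND4-like at 1 DAG had 104, 87.9 and 59 in the scion and 157, 167 and 170.0 in intact plants, a difference in response of 1.96 (SE 0.22, edgeR adjusted p = 1.08e-08). PaAPL-like gained 1.09 (SE 0.25, edgeR adjusted p = 0.00188), a call that was lost without scion replicate 3 (0.98) or intact replicate 3 (0.94) of day 3. Lists tied to lignin had few calls: of 61 laccases 4 had a higher and 4 a lower response (median 0.01), and of 47 monolignol genes 0 and 4 (median -0.62). At an unadjusted edgeR p under 0.05, 21 monolignol genes had a lower response and 0 a higher one, so most of these stayed uncalled.

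Among wall enzymes the families differed in their counts. Pectin methylesterases had 12 of 54 with a higher response at day 3 and 1 with a lower one, and beta-1,4-glucanases had 6 of 22 and none. Expansins and xyloglucan enzymes had 4 of 31 and 1, and most members of these 3 lists were not called. PaPME5-like at 1 DAG had 41.3, 41.8 and 34.7 normalized reads in the scion and 89.6, 91.3 and 51.2 in intact plants, and its response was higher at day 3 by 1.66 (SE 0.28, edgeR adjusted p = 2.66e-05). Polygalacturonase MA_133473g0010 at 1 DAG had 16, 10.2 and 12.2 in the scion and 10.4, 13.6 and 24 in intact plants, and gained 5.27 (SE 0.78, edgeR adjusted p = 5.75e-06). The PR-1-like gene MA_102795g0010, absent from the intact libraries of day 3, had 0.84, 12.8 and 5.21 in the scion of day 1 and 0, 1.51 and 3.27 in its intact plants.

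Glutathione S-transferases had a lower response at day 3 in 13 of 32 and a higher one in 1, and were called higher than intact plants in 29 genes at day 1, 21 at day 3 and 13 at day 7. Heat shock proteins had a lower response in 16 of 42 and a higher one in 1. Flavonoid genes had a lower response in 7 of 27 and a higher one in none. PaWIP4-like at 1 DAG had 306, 297 and 388 in the scion and 47.8, 51.3 and 29.4 in intact plants, and the difference in response was -1.20 (SE 0.23, edgeR adjusted p = 0.000177). At day 3 it had 235, 277 and 222 in the scion and 76.2, 81.8 and 75.3 in intact plants, so its level in intact plants was also higher on that day. The 4 annotated genes with the largest drop in response included a phenylcoumaran benzylic ether reductase (MA_17102g0020), an enzyme of lignan synthesis. It had 4919, 1708 and 3260.2 in the scion of day 1 and 558, 626 and 539 at day 3, with a difference in response of -4.28 (SE 0.49, edgeR adjusted p = 8.73e-08). That difference also takes in the intact plants of both days, so it is not the drop in the scion alone. At day 3 the rise of MA_17102g0020 over intact plants was 0.94 and not called without intact replicate 2. A 2-methylene-furan-3-one reductase (MA_105802g0010) went from 2883, 1149 and 2379.6 in the scion of day 1 to 146, 120.02 and 123 at day 3.

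Ribosomal proteins were called higher than intact plants in 71 of 74 genes at day 1, 59 at day 3 and 2 at day 7, while the test between day 1 and day 3 called none of them by edgeR or DESeq2 (0 higher and 30 lower at an unadjusted p under 0.05), with a median difference of -0.20. The pathogenesis-related list went from 29 to 13 and 8 genes called higher, while the share called higher among annotated genes was 47.5% at day 1, 32.7% at day 3 and 27.6% at day 7. Between day 1 and day 3 the list had 4 of 39 called lower and 1 higher. Mitosis genes went from 1 to 9 and 13 called higher. Of the lists with no call in 1 direction between day 1 and day 3, the others had 0 to 2 members at an unadjusted p under 0.05 in that direction and none by DESeq2. Day 7 was not tested against day 3.

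**Figure D5:**
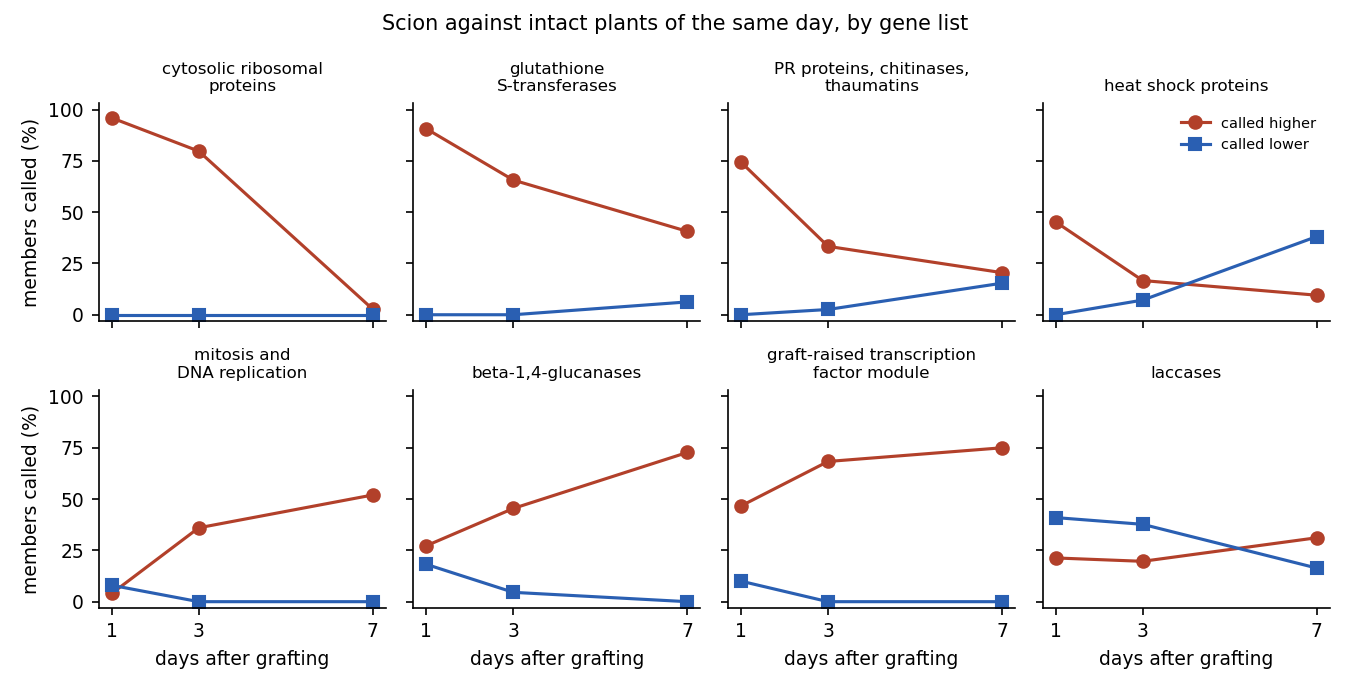
Percentage of the tested members of 8 gene lists called higher (circles) or lower (squares) in the scion than in intact plants at 1, 3 and 7 DAG (x axis in days). Cytosolic ribosomal proteins drop from 71 of 74 called higher at day 1 to 59 at day 3 and 2 at day 7, whereas mitosis and DNA replication goes from 1 to 9 and 13 of 25.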

How the data were processed

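RNA of 48 hypocotyl libraries in 16 groups of 3 biological replicates was measured, each library pooling 5 plants. The authors prepared stranded poly(A) libraries, filtered the reads (SortMeRNA for ribosomal RNA, then fastp), mapped them by STAR to the spruce genome and assigned them to genes by HTSeq in its reverse-stranded mode, which sets antisense reads aside. The authors deposited these unscaled whole-number counts for 70736 genes, and 0 columns stayed unmatched to a sample. Reads assigned to near-identical gene copies can be missing or split. No gene positions or sequences were used here.

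Counts were tested with edgeR 4.0.16 in R 4.3.3: filterByExpr (minimum count 10) kept 38436 genes, TMM factors scaled libraries, and a robust quasi-likelihood model was fitted to all 16 groups. Standard errors were derived as |log2 fold change|/sqrt(F), which understates them for groups with hardly any reads. p-values are Benjamini–Hochberg adjusted over all genes tested. Size factors from DESeq2 1.42.0 were used to obtain normalized reads. The fit was tested on simulated counts before use.

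The comparison, the 21 gene lists and the named genes were chosen with earlier results of these data known. Of the lists, 5 came from the study's supplement and 16 from annotation words in the part of its expression tables used here, which gave words for 4856 genes, and the transcription factor module was chosen by the study on these samples. Genes were named by rule: the 16 spruce genes the paper names with an identifier, the 10 largest annotated rises and falls (mean of at least 50 normalized reads, groups not overlapping), the largest rise and fall of each list (mean of at least 20), the 4 largest differences each way from rootstock and from the day 1 response, and the largest rise and fall of all. For the rootstock difference the mean and the overlap were taken over scion and rootstock, and for the day 1 difference over scion and intact plants of day 3. Where a group had 1 to 3 reads, ratios carry exact binomial 95% intervals, and where it had none a floor of 3 reads gave a lower bound, both for counting error only. Alternatives were DESeq2, RLE scaling, library size alone, no filter, a filter of 1 CPM in 6 libraries, replicate blocks, only the libraries compared, thinning to the smallest total and leaving out each library.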

Additional observations from a re-analysis of the deposited data

Results flagged for a closer look

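The scion differed from the rootstock at 3 DAG, by a direct test of the difference, in 2740 genes that were higher and 1721 that were lower. Among the 75 named genes, 37 showed such a difference, given here on the log2 scale. The scion was higher by 5.08 in MA_104214g0010 (dehydrin), 4.78 in MA_117730g0010 (peroxidase 66), 4.73 in MA_106915g0010 (class I heat shock), 4.68 in MA_12174g0010 (HAT22-like), 4.66 in MA_133473g0010 (polygalacturonase) and 4.27 in PaPRX66-like. Further differences towards the scion were 4.18 in MA_100063g0010 (peroxidase 66), 4.08 in MA_13253g0010 (auxin methyltransferase), 3.95 in PaVND4-like, 2.87 in MA_10427493g0030 (small heat shock), 2.80 in PaWIND1-like and 2.78 in MA_10229741g0010 (TIFY 10a). Smaller ones were 2.00 in MA_187114g0010 (dehydrin), 1.93 in MA_10433581g0010 (laccase-1), 1.65 in MA_10428610g0010 (pectinesterase 53), 1.50 in PaAPL-like, 1.40 in MA_679495g0010 (pectinesterase inhibitor-type) and 1.01 in MA_14925g0010 (glutathione S-transferase). The scion was lower, with log2 differences of -5.18 in MA_248276g0010 (anti-microbial), -5.14 in MA_14420g0010 (trypsin inhibitor), -5.02 in MA_111103g0010 (cell wall invertase), -4.82 in MA_10435706g0010 (sesquiterpene synthase), -4.60 in MA_9514811g0010 (unannotated) and -3.08 in MA_648837g0010 (pectinesterase-like). Intermediate differences towards the rootstock were -2.32 in MA_10428249g0010 (auxin-induced 15A-like), -2.22 in MA_10436974g0020 (HSP26), -2.21 in MA_10430508g0010 (leucoanthocyanidin dioxygenase-like), -2.18 in MA_10435833g0010 (dihydroflavonol 4-reductase), -1.97 in MA_24001g0010 (GAST1-like) and -1.78 in MA_10426551g0010 (longifolene synthase). Smaller differences towards the rootstock were -1.59 in MA_186345g0010 (cationic peroxidase), -1.34 in MA_697188g0010 (endoglucanase 3), -1.21 in MA_105802g0010 (furanone reductase), -1.18 in MA_10426905g0010 (blue copper protein), -1.16 in MA_175750g0010 (WRKY31), -1.10 in PaKOR1-like and -1.01 in MA_10433908g0010 (xyloglucan endotransglycosylase). The calls of PaKOR1-like, MA_10433908g0010, MA_679495g0010, MA_10426551g0010, MA_10229741g0010 and MA_14925g0010 were lost under at least 1 alternative, where their log2 differences lay between -0.834 and -1.13 for MA_10433908g0010, 1.13 and 1.49 for MA_679495g0010, -1.40 and -1.79 for MA_10426551g0010, 2.17 and 2.65 for MA_10229741g0010 and 0.884 and 1.00 for MA_14925g0010.

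The response of the scion differed between day 3 and day 1, by the interaction term, in 1671 genes that were higher and 892 that were lower. Among the 75 named genes, 21 showed such a change. The response was higher at day 3 by 10.23 in MA_102795g0010 (PR-1-like), 6.16 in MA_117730g0010 (peroxidase 66), 5.27 in MA_133473g0010 (polygalacturonase), 4.86 in MA_100063g0010 (peroxidase 66), 4.13 in PaPRX66-like and 3.15 in MA_10265000g0010 (PR10). It was also higher by 2.44 in PaMYB4-like, 1.96 in PaVND4-like, 1.89 in MA_10428610g0010 (pectinesterase 53), 1.79 in MA_12174g0010 (HAT22-like), 1.73 in MA_10429863g0010 (cell division control 2 homolog C) and 1.66 in PaPME5-like. Smaller gains were 1.55 in PaCDKB2;2-like and 1.09 in PaAPL-like. The response was lower at day 3, with log2 differences of -4.30 in MA_105802g0010 (furanone reductase), -4.28 in MA_17102g0020 (phenylcoumaran benzylic ether reductase), -3.33 in MA_119720g0010 (Pollen Ole e 1 allergen), -2.76 in MA_10426905g0010 (blue copper protein), -2.75 in MA_10436974g0020 (HSP26), -2.15 in MA_10430508g0010 (leucoanthocyanidin dioxygenase-like) and -1.20 in PaWIP4-like. The value of MA_102795g0010 is no measure of size, since its intact libraries of day 3 held no read. Its call was lost with thinning and without intact replicate 2 or 3 of day 1. PaMYB4-like was not called without intact replicate 1 of day 3 (1.99) or intact replicate 2 of day 1 (2.10), and was 4.26 without intact replicate 3 of day 3. MA_10265000g0010 was not called with no filter (3.12), without intact replicate 1 (3.38) or 2 (2.76) of day 3, or without intact replicate 3 of day 1 (2.11), and MA_10429863g0010 was not called with thinning (1.24) or without intact replicate 2 of day 1 (1.57). The genes with the largest of these differences were named by that rule, so their size is a description.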

How the results depend on the processing

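The counts of genes called higher and lower kept within 1.5 times their main value under every alternative run for the 3 comparisons, the lists as a whole and the day 1 and day 7 overlaps, and no named gene reversed its sign where it was called. Leaving out each library in turn gave 3585 to 3826 higher and 2612 to 2951 lower genes against intact plants, 2469 to 2643 and 1455 to 1698 against rootstock, and 1468 to 1725 and 770 to 907 for the change since day 1. Over all lists it gave 309 to 322 higher and 62 to 72 lower members. Fitting only the 6 libraries gave 3175 and 2516 calls, thinning 3451 and 2641, DESeq2 3663 and 3161, and library size alone 4749 and 2232. Counts of single lists that moved by more than 1.5 times are given with the lists, besides lists whose count of lower members moved between 0 and 1 or 1 and 2. Of 69 named genes called against intact plants, 63 were called under every alternative. The alternatives for the overlaps and for the named genes against rootstock and day 1 were chosen after seeing the data, and there 31 of 37 and 16 of 21 were called throughout. No pairing by replicate number was seen, although such correlations cannot show that samples were unpaired. Deviations of same-numbered scion and intact libraries of day 3 correlated at -0.02, 0.01 and 0.02. For scion and rootstock of day 3 these values were -0.085, -0.065 and -0.042. A replicate block over all libraries gave 3773 and 2906 calls, and a replicate block within days 3788 and 2877. With 3 libraries of pooled plants per group, low genes and changes near the fold threshold are the least certain, and intact replicate 2 had the lowest total.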

Other observations

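Of the most abundant genes, the 4 given here carried no annotation. MA_10431300g0020 had 347819, 373635 and 398148 normalized reads in intact plants and 68609.5, 74311 and 90700.1 in the scion, and MA_47626g0010 had 254674, 267118 and 281085 normalized reads in intact plants and 88127, 101982 and 107495 in the scion. MA_2153472g0010 had 110923, 109786 and 106739 normalized reads in intact plants and 15244, 17048 and 18501 in the scion, and 92311, 73247 and 84249.6 in the rootstock. MA_6198238g0010 ran the other way, with 55532, 62891 and 47204 normalized reads in intact plants and 114083, 133130.4 and 160075 in the scion.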
